A study of Mus musculus with 6 samples.

Results

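The 5 genes described here, Igf2bp1, Igf2bp2, Igf2bp3, Lin28b and Hmga2, were taken by their symbols from the 20367 genes that could be joined across the libraries of an RNA sequencing study of embryonic mouse cortex. All 5 were found under those symbols and all 5 were above 0 in every library. The cells came from C57BL/6J embryos obtained by crossing heterozygous Tbr2(Eomes)-GFP mice with homozygous DCX-mRFP mice, and every library came from cortices positive for both colors. GFP stands for Eomes, which marks intermediate progenitors, and mRFP for doublecortin, which marks young neurons. Sorting gave 2 populations. Neurons derived from intermediate progenitors (IPN) carried both colors, and the remaining neurons (non-IPN) carried red alone. Embryonic day 13.5 (E13.5), E15.5 and E16.5 were each covered by 1 library per population, so the 3 ages were the only replication of a difference between populations. At E15.5 each library was made from 1000000 cells and was not amplified. At both other ages 10000 cells were used, and the whole transcriptome was amplified with the Ovation RNA-Seq System V2 (NuGEN). The labels tie no library to single embryos, so p-values measure only the spread between these libraries. Both reporters read present or recent expression of a gene and are not permanent marks of descent.

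IGF2BP1, IGF2BP2 and IGF2BP3 are RNA-binding proteins that hold, localise and stabilise messenger RNAs, and they are known as oncofetal proteins because they are made in embryonic tissue and again in many tumours. LIN28B binds the precursors of the let-7 microRNAs and blocks their maturation, and HMGA2 is a small chromatin protein that binds AT-rich DNA and is known for its role in fetal neural stem cells. The mRNAs of all these genes are known targets of let-7, whose mature forms accumulate as neural progenitors differentiate, and let-7 and LIN28 therefore repress each other.

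The pairing between let-7 and these mRNAs runs through the seed, bases 2 to 8 of the microRNA. RefSeq (GRCm38.p6) gives the same seed to let-7a to let-7g, let-7i, let-7k and miR-98, while let-7j differs in its seed. miR-125, a second family known to bind Lin28 mRNAs, has another seed. Representatives are shown 5′ to 3′ with the seed in capitals, because the target sites in the 5 mRNAs are read against it.
let-7a-5p: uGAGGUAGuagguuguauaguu
let-7i-5p: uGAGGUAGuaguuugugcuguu
miR-98-5p: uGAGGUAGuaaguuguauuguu
let-7j: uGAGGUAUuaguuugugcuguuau
miR-125b-5p: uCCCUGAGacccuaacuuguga

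Matches were searched on the transcript strand of the annotated 3′ untranslated regions (GENCODE M21, GRCm38, 1 transcript per gene, the one with the longest coding sequence). A match was CTACCTC, which pairs with bases 2 to 8 of let-7, or TACCTCA, which pairs with bases 2 to 7 and ends in A. Where both overlap they form the 8-base match CTACCTCA and were counted 1 time. Each of the 5 genes held an 8-base match, and the first of each is shown as DNA with the match in capitals, since it is the sequence feature that all 5 share.
Igf2bp1, chr11:95961778-95961799, minus strand: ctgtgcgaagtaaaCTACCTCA
Igf2bp2, chr16:22059473-22059494, minus strand: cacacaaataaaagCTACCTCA
Igf2bp3, chr6:49086787-49086808, minus strand: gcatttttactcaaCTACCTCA
Lin28b, chr10:45381022-45381043, minus strand: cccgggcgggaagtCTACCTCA
Hmga2, chr10:120364224-120364245, minus strand: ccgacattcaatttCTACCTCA

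Igf2bp1 held 5 matches in 6337 bases, 3 of them of 8 bases. Lin28b held 5 matches in 4445 bases and Hmga2 held 7 in 3014 bases, each with 1 of 8 bases. The Igf2bp2 region of 1784 bases held 2 matches and the Igf2bp3 region of 2119 bases held 1. Among all 21020 genes with an annotated 3′ untranslated region, 13.3% had a let-7 match of either kind, 2.68% had an 8-base match and 15 genes had 5 or more matches. Longer regions hold more matches, so each gene was also set beside genes whose region was 0.8 to 1.25 times as long. At least as many matches as in Hmga2 were found in 0.0956% of 2092 such genes, and as many as in Lin28b in 0.52% of 1154. As many as in Igf2bp1 occurred in 0.805% of 497 genes, as many as in Igf2bp2 in 2.83% of 2826, and as many as in Igf2bp3 in 23.4% of 2683. A match to the miR-125 seed (CTCAGGG, or TCAGGGA) occurred 1 time each in Igf2bp3, Lin28b and Hmga2 and was not found in the Igf2bp1 and Igf2bp2 regions. Between 27.3% and 62.8% of genes with regions of like length held at least 1 such match. A match is a description of these letters and neither a proven site nor a cause. The let-7 microRNAs and their host loci were not analysed here.

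**Figure D1:**
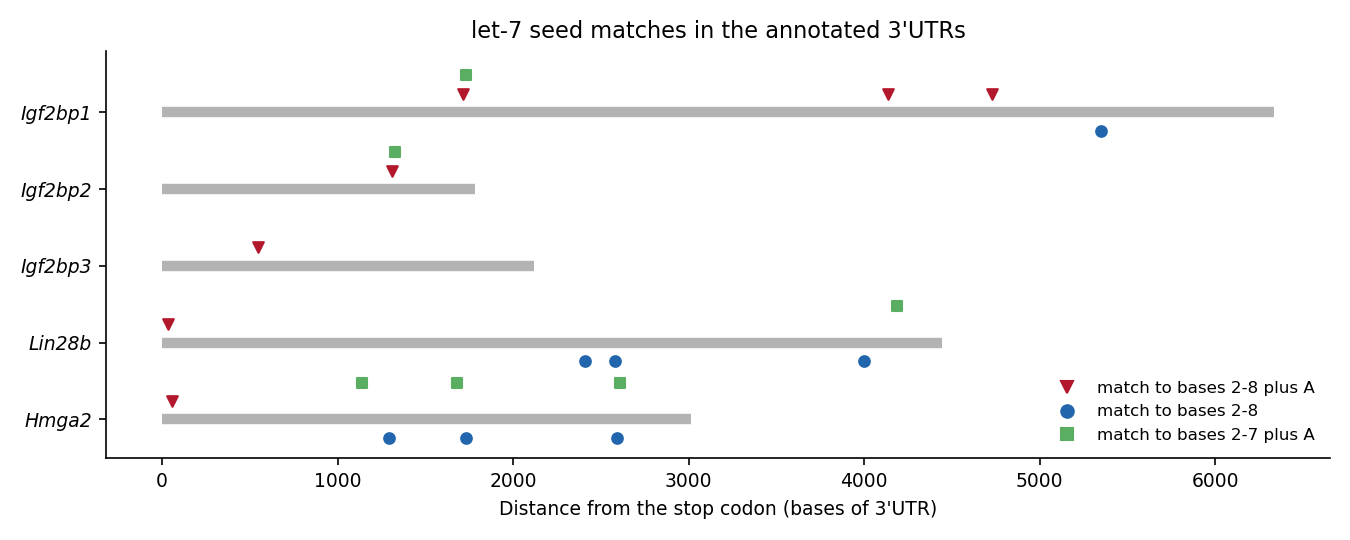
Position of each let-7 seed match in the annotated 3′ untranslated region of the 5 genes, in bases from the stop codon (grey bars, drawn to the length of each region). Triangles are 8-base matches, circles match bases 2 to 8 and squares match bases 2 to 7 plus A. Among the 7 matches of Hmga2 and the 5 of Lin28b, the 8-base match stands near the stop codon in both genes. The other matches lie from base 1142 on in Hmga2 and from base 2410 on in Lin28b.

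The deposited values are whole numbers scaled by the authors, and a level in CPM is such a value times 1000000 divided by the total of its library's column. Column totals ran from 12583677 to 32538995, and 7655 to 9692 genes per library reached 10 CPM. True read depth cannot be read from scaled values, so no counting interval is given. Eomes had 437, 102 and 98.4 CPM in IPN at the 3 ages, against 214, 72.5 and 72.0 CPM in non-IPN, so the red-only libraries also held Eomes mRNA. Dcx had 1390, 2860 and 3270 CPM in IPN and 855, 4640 and 4450 CPM in non-IPN. The non-IPN library at E13.5 stood apart: hemoglobin genes took 4.9242% of its total, against at most 0.0275% in any other library. Its summed radial glia markers (12 genes) reached 4790 CPM and its cell cycle markers (15 genes) 4780 CPM. In the other 5 libraries these sums ran from 858 to 1630 CPM and from 351 to 1570 CPM. The size of the Hmga2 difference between ages, though not its direction, depends on this library, as does the Hmga2 difference between populations. The age difference is given with and without it, and the population difference with and without the whole E13.5 pair.

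**Figure D2:**
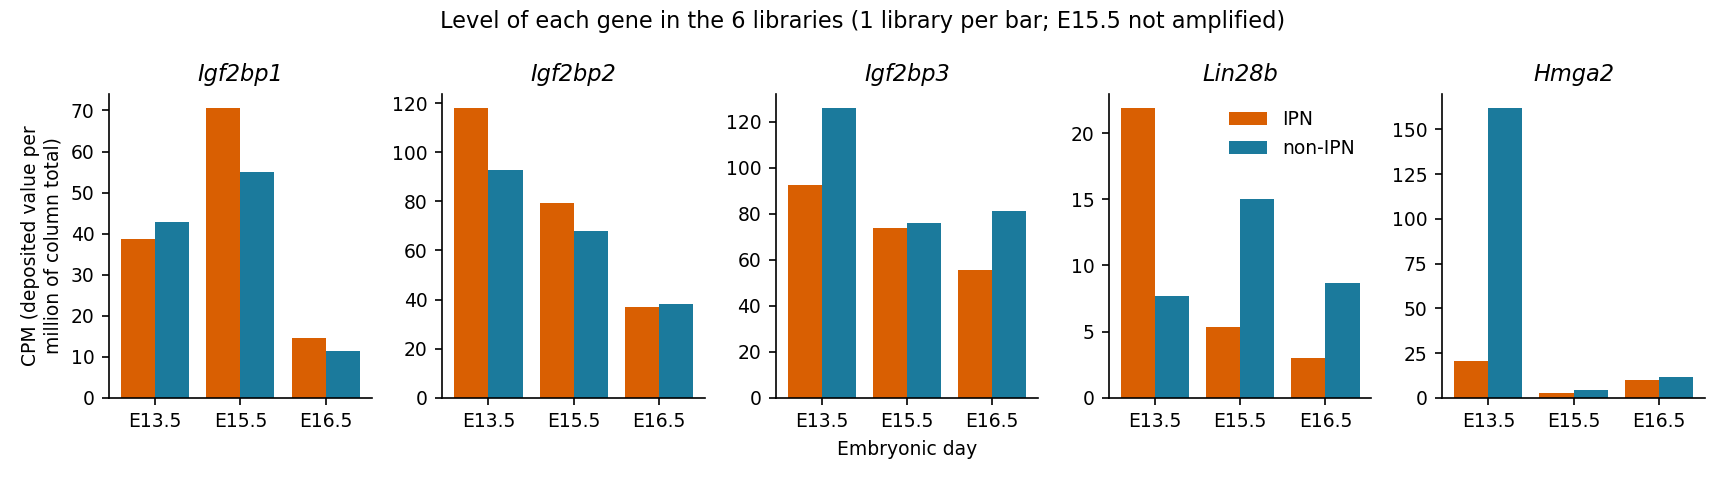
Level of each gene in CPM (linear axes from 0) in the IPN and non-IPN libraries of each age, 1 library per bar and therefore without error bars. The 3 Igf2bp genes stood lower at E16.5 than at E13.5 in both populations, Lin28b stood highest in IPN at E13.5 (21.9 CPM), and Hmga2 stood highest in non-IPN at E13.5 (162 CPM).

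Across ages, 2 of the 5 genes passed the test, and both were lower at E16.5 than at E13.5. Each age came from 1 set of cortices that gave both populations, so the 2 libraries of an age are not independent replicates of it. A difference between ages therefore cannot be told apart from one between these sets of cortices or their preparation. Igf2bp1 and Igf2bp2 fell, Igf2bp3 and Hmga2 were lower in both populations without passing, and Lin28b was lower in IPN alone. The test was limma on log2(value + 1) over all 19561 genes above 0 in at least 1 library, with population and age as factors and Benjamini-Hochberg adjustment at 0.05. It called 6.02% of all genes, 2.26% as lower and 3.76% as higher at E16.5. Among genes with a mean of at least 10 CPM, fitted alone, 14.0% were called and 5.57% were called lower. An unadjusted p under 0.05 was found for 4 of the 5 genes, against 21.6% of all genes. With any 1 of the 4 libraries of E13.5 and E16.5 left out, limma called no gene at all, the 5 included, while 1809 to 4025 genes had an unadjusted p under 0.05. Values at E15.5 are shown beside the others, but amplification and cell number changed with that age and cannot be told apart from it, so no level at E15.5 was tested against another age. In bulk samples, fewer cells of a type and less RNA per cell cannot be told apart either.

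Igf2bp1, which binds beta-actin mRNA and is also known as the zipcode-binding protein, had 38.8, 70.6 and 14.5 CPM in the IPN libraries of E13.5, E15.5 and E16.5. In non-IPN it had 42.9, 55.0 and 11.3 CPM in the same order of ages. Both E16.5 libraries were below both E13.5 libraries, and both unamplified E15.5 libraries were above all the others. On log2(value + 1) the E16.5 minus E13.5 difference was -1.50 in IPN and -2.07 in non-IPN, a level 2.67-fold and 3.80-fold higher at E13.5 in CPM. The fit gave -1.78 ± 0.35 (log2, SE; limma, Benjamini-Hochberg adjusted p = 0.017). The adjusted p was 0.0687 on log2(CPM + 1), which changes the scaling and enlarges the pseudocount together, and 0.024 with column totals equalised and the pseudocount held at 1 deposited unit. It was 0.0209 with median-of-ratios scaling and 0.126 without the E15.5 pair, with the same direction in each. With 1 library of E13.5 or E16.5 left out the difference ran from -2.03 to -1.54 and the adjusted p from 0.227 to 0.504.

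Igf2bp2, a family member linked to metabolism and, in mouse, to neural precursor fate, had 118, 79.5 and 36.9 CPM in IPN at the 3 ages. Non-IPN had 92.8, 67.8 and 38.4 CPM. The order of the ages was the same in both populations, with the E15.5 libraries between the others. The E16.5 minus E13.5 difference was -1.75 in IPN and -1.42 in non-IPN on the log2 scale, and the fit gave -1.59 ± 0.28 (limma, Benjamini-Hochberg adjusted p = 0.0119). The adjusted p was 0.0555 on log2(CPM + 1), 0.0168 with column totals equalised and the pseudocount held, 0.0137 with median-of-ratios scaling and 0.0875 when the E15.5 pair was left out. With 1 library of E13.5 or E16.5 left out the difference was between -1.72 and -1.46, at the same adjusted p as for Igf2bp1.

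Igf2bp3, which in adult tissue is nearly silent, had 92.7, 73.7 and 55.7 CPM in IPN and 126, 75.8 and 81.3 CPM in non-IPN at the 3 ages. Here too both E16.5 libraries were below both E13.5 libraries, although non-IPN at E16.5 came close to IPN at E13.5 and stood above both E15.5 libraries. The log2 differences of -0.82 in IPN and -0.78 in non-IPN were the most alike pair of changes among the 5 genes. The fitted difference of -0.80 ± 0.27 had a limma adjusted p of 0.119 (Benjamini-Hochberg) and is not called.

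Lin28b had 21.9, 5.38 and 3.01 CPM in IPN at the 3 ages. In non-IPN it had 7.72, 15.0 and 8.66 CPM. The IPN library at E13.5 was above the other 5, and the E16.5 library of the same population was the lowest of all 6. The E16.5 minus E13.5 difference was -2.92 in IPN and 0.01 in non-IPN on the log2 scale, where the deposited value was 44 in IPN at E16.5, against 339 at E13.5, and 109 in non-IPN at E16.5, against 108 at E13.5. The fit, which averages over populations, gave -1.45 ± 0.78 (limma, Benjamini-Hochberg adjusted p = 0.319). Without the IPN library at E13.5 it was 0.05 (adjusted p = 0.923), so the direction rested on that library.

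Hmga2 had 20.7, 2.80 and 10.2 CPM in IPN at the 3 ages. Non-IPN had 162, 4.14 and 11.6 CPM. The non-IPN library at E13.5 was far above all the others, and both E15.5 libraries were the lowest. The E16.5 minus E13.5 difference was -1.10 in IPN and -3.95 in non-IPN, a level 2.04-fold and 14.0-fold higher at E13.5 in CPM. The fit gave -2.53 ± 0.67 (limma, Benjamini-Hochberg adjusted p = 0.0547), just outside the threshold. Without the non-IPN library at E13.5 it was -1.24 (adjusted p = 0.331), and without the IPN library at E13.5 it was -3.82 (adjusted p = 0.227).

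Set against the rest of the series, 4 of the 5 genes were lower at E16.5 in both populations, which held for 24.5% of all tested genes. The same 4 had both E16.5 libraries below both E13.5 libraries, which held for 18.1%. Among the 9349 genes with a mean of at least 10 CPM, the median log2 change was -0.02 in IPN, against 0.13 in non-IPN. In IPN, 0.824% of these genes had a change as low as that of Lin28b, 2.97% as low as Igf2bp2, 4.29% as low as Igf2bp1, 8.65% as low as Hmga2 and 15.1% as low as Igf2bp3. In non-IPN, 0.46% had one as low as Hmga2, 3.74% as low as Igf2bp1, 8.13% as low as Igf2bp2, 19.7% as low as Igf2bp3 and 45.7% as low as Lin28b. The gene with the deepest change was thus Lin28b in IPN and Hmga2 in non-IPN.

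**Figure D3:**
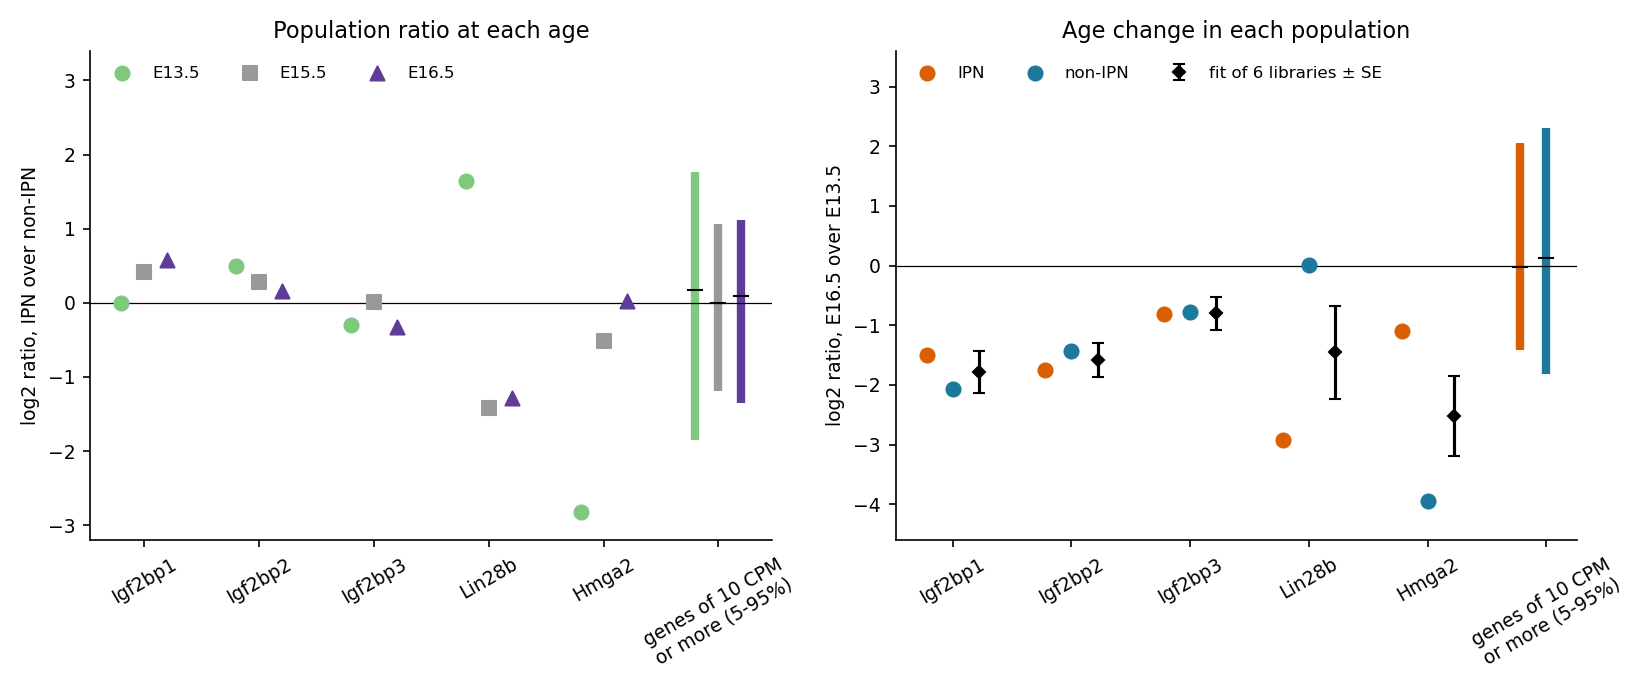
Left, log2 ratio of IPN over non-IPN at each age; right, log2 ratio of E16.5 over E13.5 in each population with the limma estimate ± SE of the 6 libraries (diamonds). Bars at the right of each panel span the 5th to the 95th percentile of the 9349 genes with a mean of at least 10 CPM, with the median as a dash. The Igf2bp genes stay near 0 on the left and below 0 on the right, while Lin28b and Hmga2 are spread widely in both panels.

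Between populations none of the 5 genes was called. The fit called 3.39% of all genes, 0.982% as higher and 2.41% as lower in IPN. None of the 5 had an unadjusted p under 0.05 in limma either, against 13.6% of all genes, and the lowest unadjusted p was 0.0714 for Hmga2. With 3 pairs of libraries, an exact sign-flip test cannot go below p = 0.25, so no such test is given. Igf2bp1 averaged 41.3 ± 28.1 CPM in IPN and 36.4 ± 22.6 CPM in non-IPN (SD over the 3 ages, n = 3 each). Its log2 ratio of IPN over non-IPN on the deposited scale was 0.00, 0.41 and 0.57 at the 3 ages (in CPM, IPN was the lower one at E13.5), and the fitted difference was 0.33 ± 0.29 (SE). Igf2bp2 averaged 78.1 ± 40.5 CPM in IPN and 66.3 ± 27.2 CPM in non-IPN, with ratios of 0.49, 0.28 and 0.16 and a fitted difference of 0.31 ± 0.23. It was the only one of the 5 with IPN on the same side of non-IPN at every age on the deposited scale, which held for 29.3% of all genes. The scale decided this: in CPM the E16.5 pair of Igf2bp2 stood the other way round, and Igf2bp3 and Hmga2 were instead lower in IPN at every age. Igf2bp3 averaged 74.0 ± 18.5 CPM in IPN and 94.3 ± 27.4 CPM in non-IPN, with a fitted difference of -0.20 ± 0.22. The adjusted p of these 3 genes ran from 0.644 to 0.769 (limma, Benjamini-Hochberg).

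Lin28b and Hmga2 had the widest population ratios. For Lin28b the log2 ratios from E13.5 to E16.5 were 1.64, -1.42 and -1.29. At E13.5, 5.82% of the genes with at least 10 CPM had a ratio as high. At the later ages 4.09% and 5.34% had one as low. For Hmga2 they were -2.82, -0.51 and 0.03, and 2.6% of genes had a ratio as low at E13.5. IPN was thus above non-IPN in Lin28b at E13.5 and below it at both later ages, while the Hmga2 ratio was far from 0 at E13.5 alone. The fitted differences were -0.36 ± 0.64 for Lin28b and -1.10 ± 0.55 for Hmga2, with limma adjusted p (Benjamini-Hochberg) of 0.842 and 0.434. Without the E13.5 pair the Hmga2 difference was -0.24 (adjusted p = 0.879), and the Lin28b difference changed sign to 0.18 without the E15.5 pair and to 0.11 without the E16.5 pair.

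Whether the population difference moved with age was tested by a term for population by embryonic day, with 1 residual degree of freedom. The term takes day as a number, so it sets the ratio of the unamplified E15.5 pair beside those of the amplified ages. An effect of amplification or cell number on that ratio cannot be told apart from one of day. None of the 5 genes was called, against 1.3% of all genes, and 2 of the 5 had an unadjusted p under 0.05, against 16.7% of all genes. These 2 were Lin28b, at -1.06 ± 0.33 log2 units per day (limma, Benjamini-Hochberg adjusted p = 0.115), and Hmga2, at 0.98 ± 0.26 (adjusted p = 0.0765). The 2 coefficients had opposite signs, negative for Lin28b, whose ratio of IPN over non-IPN was highest at E13.5, and positive for Hmga2, whose ratio was lowest at E13.5. With median-of-ratios scaling both were called, at an adjusted p of 0.0311 for Lin28b and 0.011 for Hmga2. Both were also called with column totals equalised and the pseudocount held (0.0311 and 0.0177), and Hmga2 on log2(CPM + 1) (0.0257) and with a pseudocount of 0.5 (0.0457). Hmga2 was not called with a pseudocount of 8 (0.125), among genes with a mean of at least 10 CPM (0.081) or without limma's trend and robust options (0.401). The term rests on the E13.5 pair: without it 2 ages remain, with no residual degrees of freedom, and the ratio of IPN over non-IPN moved by 0.54 log2 units per day for Hmga2 and by 0.13 for Lin28b, values with no test. The terms of Igf2bp1, Igf2bp2 and Igf2bp3 were 0.19 ± 0.18, -0.11 ± 0.16 and 0.01 ± 0.16, with adjusted p from 0.64 to 0.983.

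Levels of the 3 Igf2bp genes were set beside each other per kilobase of transcript. Transcript lengths of 8378, 3899 and 4345 bases for Igf2bp1, Igf2bp2 and Igf2bp3 were used (GENCODE M21), and shares are of the summed CPM per kilobase of the 3 genes. Igf2bp3 held 53.4% of the family in IPN at E16.5, against 38.0% at E13.5, and 62.6% in non-IPN at E16.5, against 50.0% at E13.5. The share of Igf2bp2 was 39.4% in IPN at E16.5, against 53.8% at E13.5, and 32.9% in non-IPN at E16.5, against 41.1% at E13.5. Igf2bp1 was the smallest part in every library, between 4.5% and 18.4%, and its 2 highest shares were those of the E15.5 libraries. At E15.5, Igf2bp2 and Igf2bp3 were nearly level in non-IPN, at 42.0% and 42.1%. In total the 3 genes had 107 CPM in IPN at E16.5, against 249 CPM at E13.5, and 131 CPM in non-IPN at E16.5, against 261 CPM at E13.5. On the same per-kilobase scale Hmga2 had 42.6 CPM per kilobase in non-IPN at E13.5, the highest level of any of the 5 genes in any library, and 5.45 in IPN at that age.

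Marker lists were summed in the same libraries. The cell cycle sum was 656 CPM in IPN at E16.5, against 1570 CPM at E13.5, and 810 CPM in non-IPN at E16.5, against 4780 CPM at E13.5. Intermediate progenitor markers (9 genes, Eomes among them) summed to 915 CPM in IPN at E16.5, against 1880 CPM at E13.5, and to 664 CPM in non-IPN, against 1970 CPM. Young neuron markers (7 of 8 listed genes found, Dcx and Tubb3 among them) had higher sums at E16.5, with 5970 CPM in IPN at E16.5, against 3350 CPM at E13.5, and 6710 CPM in non-IPN, against 1620 CPM. Radial glia markers summed to 1480 CPM in IPN at E16.5, against 1330 CPM at E13.5, and to 1630 CPM in non-IPN at E16.5, against 4790 CPM at E13.5. No marker of these 4 lists was at 0 in any library. Their part in the results was not tested.

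Markers of blood and immune cells were found mainly in the non-IPN libraries. Erythroid markers (10 genes) summed to 6.2, 57.7 and 13.1 CPM in IPN at the 3 ages, and to 49300, 277 and 17.6 CPM in non-IPN. Microglia and macrophage markers (9 genes) summed to 1.44 to 4.72 CPM in IPN and to 408 to 897 CPM in non-IPN. GABAergic interneuron markers (8 genes) summed to 18.4 to 60.6 CPM in IPN and 1220 to 4530 CPM in non-IPN, and projection neuron markers (8 genes) to 2860 to 5130 CPM in IPN and 475 to 2220 CPM in non-IPN. Endothelial, meningeal and choroid plexus sums were at most 7.55 CPM in every library, with 4 of 7, 4 of 8 and 3 of 4 markers at 0 in IPN at E13.5. The part of these cells in the Hmga2 level of the non-IPN library at E13.5, and in the population ratios of Lin28b, was not tested.

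**Figure D4:**
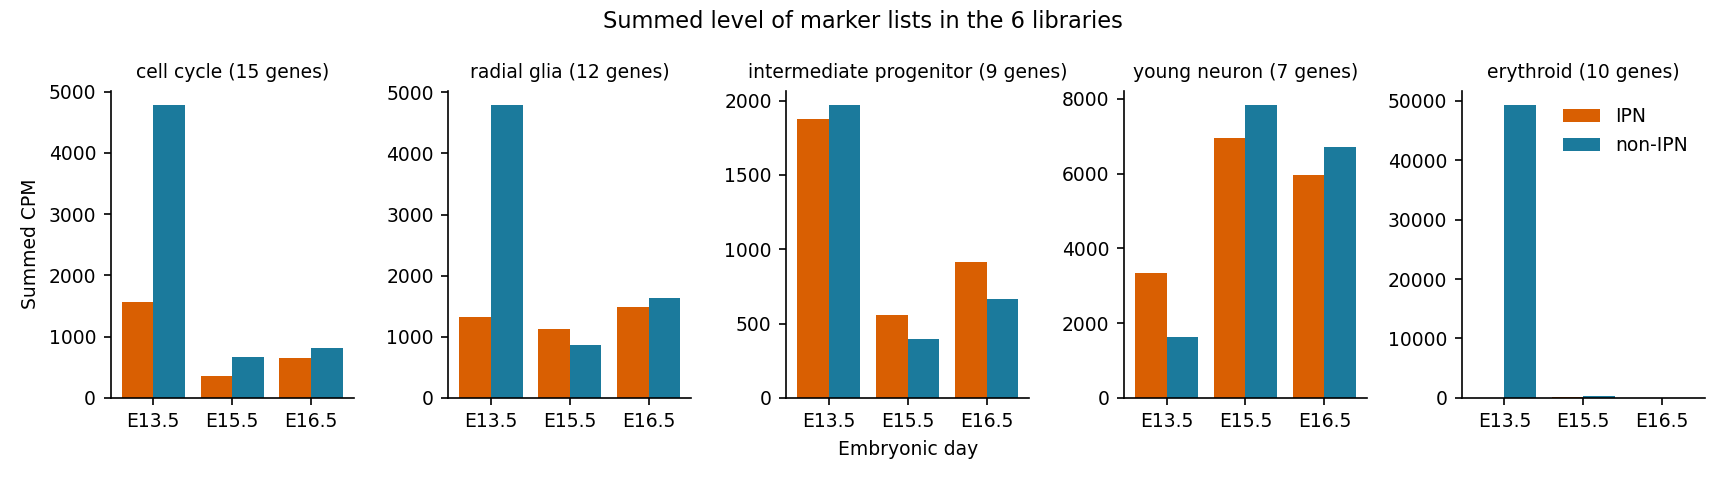
Summed CPM of 5 marker lists in the IPN and non-IPN libraries at each age, 1 library per bar, each panel on its own linear axis from 0. The non-IPN library at E13.5 has the highest cell cycle (4780 CPM), radial glia (4790 CPM) and erythroid (49300 CPM) sums, and young neuron markers are lowest at E13.5 in both populations.

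The genes whose pattern over the 6 libraries was most like each of the 5 were named by the smallest root mean square difference of centred log2(CPM + 1) among 10598 genes with a mean of at least 5 CPM. For Hmga2 these were Chek1 (0.218), Dtl (0.411) and Rcn1 (0.43). Chek1, a checkpoint kinase of replicating cells, had 23.5, 3.56 and 16.3 CPM in IPN and 168, 5.96 and 18.2 CPM in non-IPN, so it too was highest in non-IPN at E13.5 and lowest at E15.5. Dtl, a substrate receptor that acts in DNA replication, was highest in the same library, with 187 CPM. For Lin28b the nearest were Slc1a2 (0.241), the astroglial glutamate transporter GLT-1, then Galnt7 (0.327) and Ebp (0.351), a sterol isomerase. Slc1a2 had 131, 46.5 and 26.5 CPM in IPN and 40.8, 82.3 and 68.3 CPM in non-IPN. For Igf2bp1 they were Mogs (0.194), Cdk4 (0.203), a kinase of the G1 phase, and Xrcc3 (0.218). For Igf2bp2 they were Sdf2l1 (0.087), Eci3 (0.147) and Aurkaip1 (0.148). For Igf2bp3 they were Cep152 (0.07), a centriole protein, Prim2 (0.08), a DNA primase subunit, and Myo19 (0.094). The values share the same 6 libraries and are a description without a test.

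Genes that act with the 5 were counted by pathway, beginning with the enzymes that make or block let-7. Of 16 such genes, all tested, 1 was called between ages, 6.25% against 6.02% of all genes, and none between populations or in the population by day term. Eif2c3, which encodes the Argonaute protein AGO3, rose by 1.67 ± 0.42 on the log2 scale (limma, Benjamini-Hochberg adjusted p = 0.0438). It had 23.3 CPM in IPN at E16.5, against 5.3 CPM at E13.5, and 35.5 CPM in non-IPN, against 12.9 CPM. The median change of the list was 0.22, beside 0.00 for all genes. Lin28a, the paralog of Lin28b whose protein also blocks let-7 maturation, was listed at 0 in all 3 IPN libraries and had at most 0.286 CPM in non-IPN. Trim71, a let-7 target of the early embryo, had at most 0.711 CPM. The let-7 processing enzyme Dicer1 had 142 to 200 CPM in IPN and 205 to 261 CPM in non-IPN and was not called.

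Of 23 other tested mRNAs reported as let-7 targets, 2 were called lower and 1 higher at E16.5, and the median change was -0.14. The shares over all genes were 2.26% lower and 3.76% higher. Plagl2, a zinc finger transcription factor, fell by 1.64 ± 0.38 (limma, Benjamini-Hochberg adjusted p = 0.033). E2f2, a transcription factor of the cell cycle, was at 0 in the IPN library of E16.5 and at 0.318 CPM in non-IPN at that age, against 2.71 CPM and 6.94 CPM at E13.5, and was called lower (limma adjusted p = 0.0184). Arid3a, also a DNA-binding protein, was not called, at -1.48 ± 0.49 (adjusted p = 0.108). Thbs1, a secreted matrix protein, was the one gene of this list called between populations, with a log2 difference of -4.34 for IPN minus non-IPN (adjusted p = 0.0014), and it was also called in the population by day term at -1.03 per day (adjusted p = 0.0133). In every library it had 4.86 to 15.2 CPM in IPN and 44.5 to 518 CPM in non-IPN.

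All genes with a let-7 match in their annotated 3′ untranslated region were then counted, the 5 genes left out. Of 2430 tested genes with at least 1 match, 1.98% were called lower at E16.5, and the median change was 0.10. Of 14909 genes without a match, 2.38% were called lower, with a median of 0.00. Among regions of at least 1500 bases, 1.94% of 1647 genes with a match and 1.79% of 4023 genes without one were called lower, and the median was 0.21 in both. Of 484 genes with an 8-base match, 19 were called higher and 8 lower, which was 5.58% called and 1.65% called lower. Of 81 genes with 3 or more matches, 3 were called higher and 1 lower (4.94% called, 1.23% called lower), with a median of 0.29. Over all genes, 6.02% were called, 3.76% as higher and 2.26% as lower. Whether the shares of these groups differed from those was not tested.

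Insulin-like growth factor genes were counted because the IGF2BP proteins were named for binding Igf2 mRNA. Igf2 itself had 0.0715 to 2.49 CPM over the 6 libraries, so little of it was measured in these cells. Of 15 genes tested, 1 was called higher and 2 were called lower at E16.5, and 2 were called higher and 2 lower in IPN. Among all genes 3.76% were called higher and 2.26% lower at E16.5, and 0.982% were called higher and 2.41% lower in IPN. Igfbp3, a secreted binding protein, rose with age by 4.72 ± 0.54 (limma, Benjamini-Hochberg adjusted p = 0.00172) and was higher in IPN by 2.19 (adjusted p = 0.0217). It had 103 CPM in IPN at E16.5, against 6.14 CPM at E13.5, and 62.9 CPM in non-IPN, against 1.22 CPM. Igfbp2, another binding protein, fell by 1.85 ± 0.40 with age (adjusted p = 0.0246) and was higher in IPN by 1.41 (adjusted p = 0.0423). Irs1, an adaptor of the insulin and IGF1 receptors, fell by 1.54 ± 0.34 (adjusted p = 0.0276). Igf1, the ligand of that receptor, was lower in IPN, at -6.10 (adjusted p = 0.00147), with 0.0646 to 0.215 CPM in IPN and 9.29 to 28.1 CPM in non-IPN, and Igfbp4 was lower in IPN, at -2.08 (adjusted p = 0.00632). The receptor Igf1r had 150, 255 and 229 CPM in IPN and 117, 287 and 252 CPM in non-IPN and was not called. Microglia markers, given above, were also present mainly in non-IPN, and their part in the Igf1 difference was not tested.

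Of 10 genes for proteins that share ribonucleoprotein particles with the IGF2BPs, Dhx9, an RNA helicase, was the one called between ages, higher by 0.97 ± 0.23 (limma, Benjamini-Hochberg adjusted p = 0.0385), and none was called between populations. Syncrip, another particle component, had 533 CPM in IPN at E16.5, against 365 CPM at E13.5, and 653 CPM in non-IPN, against 418 CPM, and was not called. Of 9 tested mRNAs reported to be bound by IGF2BPs, Mapt, which encodes the microtubule protein tau, rose with age by 1.56 ± 0.32 (adjusted p = 0.0202). Gap43, a growth cone protein, was higher in IPN by 1.70 (adjusted p = 0.00476), with 411, 361 and 313 CPM in IPN and 97.7, 101 and 183 CPM in non-IPN. Cd44, a cell adhesion receptor, was lower in IPN, at -3.65 (adjusted p = 0.0493), although no library had more than 1.47 CPM. Actb, the classic IGF2BP1 cargo, had 1730 to 3050 CPM in IPN and 1540 to 3340 CPM in non-IPN and was not called. Of 10 genes that write, erase or read N6-methyladenosine, the mark that IGF2BPs can recognise, 1 was called between ages. Mettl14, a methyltransferase subunit, fell by 1.33 ± 0.32 (adjusted p = 0.0381), and the list median was -0.39. Over all genes, 6.02% were called between ages and 3.39% between populations. Whether any list of this paragraph differed from these shares was not tested.

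Among high mobility group (HMG) genes and the Cdkn2 genes that HMGA2 is known to hold down in neural stem cells, 3 of 10 were called lower at E16.5 and none higher, with a median of -1.26. Among all genes 2.26% were called lower, and 5.57% among those with a mean of at least 10 CPM, a level that 8 of the 10 reached. Hmgb2, a chromatin protein of dividing cells, fell by 3.28 ± 0.27 (limma, Benjamini-Hochberg adjusted p = 0.000912), to 60.0 CPM in IPN and 114 CPM in non-IPN at E16.5, against 458 CPM and 1200 CPM at E13.5. Hmgn1 and Hmgn2, nucleosome-binding proteins, also changed: Hmgn1 fell by 1.29 ± 0.23 (adjusted p = 0.0125) and Hmgn2 fell by 1.51 ± 0.28 (adjusted p = 0.0135). Cdkn2a was listed at 0 in the 3 IPN libraries and had at most 0.0795 CPM in non-IPN.

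**Figure D5:**
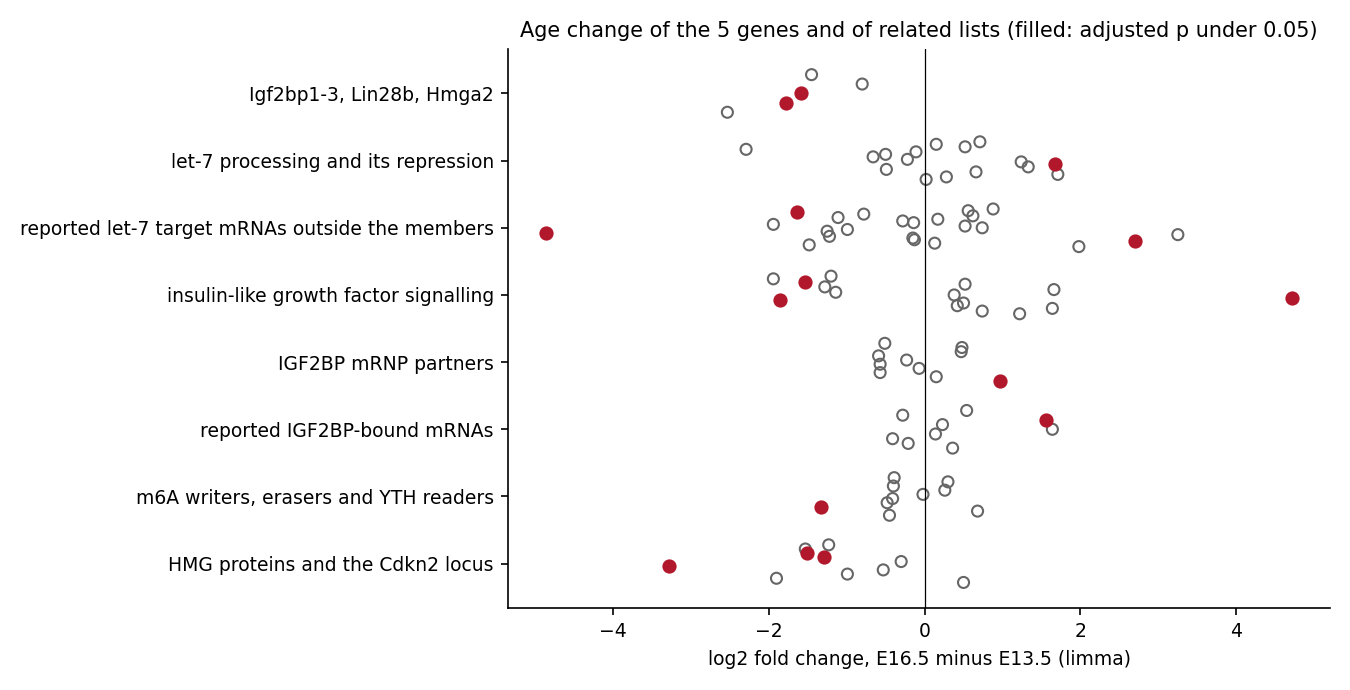
Log2 fold change of E16.5 minus E13.5 (limma) for the 5 genes and for each gene of 7 related lists, 1 point per gene; filled points have a Benjamini-Hochberg adjusted p under 0.05 and vertical scatter has no meaning. The 5 genes all lie below 0, from -2.53 to -0.80, the HMG and Cdkn2 list is mostly below 0, and the other lists spread to both sides.

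The 5 loci are all on the minus strand (GRCm38). Igf2bp1 lies at chr11:95957163-96005940, Igf2bp2 at chr16:22059009-22163299, Igf2bp3 at chr6:49085223-49214957, Lin28b at chr10:45376620-45486395 and Hmga2 at chr10:120361275-120476469. No other annotated gene overlaps Igf2bp2 or Lin28b. Antisense genes overlap Igf2bp1 (Gm29202), Igf2bp3 (Malsu1 and Gm18010) and Hmga2 (1700006J14Rik and 9230105E05Rik). Whether counting used strand is not given in the sources used here, so for those 3 genes reads of both strands cannot be told apart.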

How the data were processed

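RNA sequencing of 6 sorted libraries (IPN and non-IPN at 3 ages) was analysed from the deposited files. The submitters' processing notes name TopHat 1.2.0, CASAVA 1.9, edgeR and SAMtools 0.1.18 and build mm9, without their roles; counter, annotation and scaling method were not given in the sources used here. The deposited values are a signal in whole numbers, scaled by the authors before deposit, and not raw counts, so the count model of the design was not used. Files were joined by symbol: of 20373 rows, 6 rows of 3 repeated symbols were dropped.

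Levels are CPM. Differences were fitted with limma 3.58.1 (R 4.3.3; trend, robust) on log2(value + 1), which understates folds of low genes, over 19561 genes, with Benjamini-Hochberg adjustment at 0.05. Population and age were factors (2 residual degrees of freedom, median prior 8.3), and a second model added population by day (1, median prior 14.5). Per the labels' protocols 1 set of cortices gave both populations at each age, so age is the pairing. The fit code was run on simulated independent counts, with planted changes and no amplification effect. That run checks the code and does not measure the error of the fit on these libraries. Levels per kilobase, 3′ regions and loci used GENCODE M21 (GRCm38), not the authors' mm9. The genes named beside the 5 were those called with the largest change in each list (up to 4 per comparison), fixed genes of the let-7 and IGF pathways, and the 3 nearest patterns. Members, lists and this rule were chosen with earlier results of these data known. Some genes of these lists are not reported here.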

Additional observations from a re-analysis of the deposited data

Results flagged for a closer look

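Lin28b was lower at E16.5 in IPN and nearly level in non-IPN: E16.5 minus E13.5 was -2.92 on the log2 scale in IPN (3.01 CPM at E16.5, 21.9 CPM at E13.5) and 0.01 in non-IPN (8.66 CPM at E16.5, 7.72 CPM at E13.5), with 1 library at each point. The difference itself, by the population by day term over all 3 ages, was -1.06 ± 0.33 log2 units per day (limma, Benjamini-Hochberg adjusted p = 0.115; range over 7 alternatives 0.0311 to 0.406), which does not pass the threshold. Without the E13.5 pair the value was 0.13 log2 units per day, with no test.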

How the results depend on the processing

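Calls, over all genes, moved with the processing. Analysis on log2(CPM + 1) changes scaling and pseudocount together, so equalised column totals with the pseudocount held at 1 deposited unit, and the day term without the E13.5 pair, were added after seeing the data. Between populations 664 genes were called; there were 196 on log2(CPM + 1), 629 with the pseudocount held, 364 with a pseudocount of 8, 358 among genes with a mean of at least 10 CPM, and 54 to 595 with 1 age pair left out. With no replicate block (age term dropped) there were 0 (676 at an unadjusted p under 0.05), and 0 without limma's trend and robust options (1946). Between ages 1178 were called; there were 244 on log2(CPM + 1), 1201 with the pseudocount held, 529 with a pseudocount of 8, 97 without the E15.5 pair, 0 without the trend and robust options (3414 unadjusted) and 0 to 0 with 1 library left out (1809 to 4025 unadjusted). The population by day term called 255, against 906 on log2(CPM + 1), 1434 with the pseudocount held, 1559 with median-of-ratios scaling, 530 and 19 with pseudocounts of 0.5 and 8, 135 at 10 CPM or more and 0 without the options (2321 unadjusted).

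Of the 5 genes, the 2 called between ages (Igf2bp1 and Igf2bp2) were both called with equalised totals and the pseudocount held and with median-of-ratios scaling, and became 0 on log2(CPM + 1) (4 unadjusted), without the options (3; adjusted p 0.192 and 0.195), with the E15.5 pair left out (4) and with any 1 library left out (2 to 4; adjusted p 0.227 to 0.504, where fewer libraries remain). The direction was lower at E16.5 in all 12 alternatives for both, from -2.03 to -1.54 and from -1.72 to -1.45. For the population by day term the count of 0 became 1 on log2(CPM + 1), 2 with the pseudocount held, 2 with median-of-ratios scaling and 1 with a pseudocount of 0.5. Directions reversed for Lin28b between populations (0.176 without the E15.5 pair, 0.109 without the E16.5 pair) and between ages (0.047 without the IPN library at E13.5), and in the day term for Igf2bp3 (-0.001 on log2(CPM + 1), -0.002 with the pseudocount held) and, without the E13.5 pair and with no test, for Igf2bp3 (-0.341) and Lin28b (0.134). Use of log2(CPM + 1) moved the median age change of genes with at least 10 CPM to 0.158, against 0.047 on the deposited scale. Beyond the held pseudocount, the cause of these moves was not tested. Scaled values hide the read depth, so counting error at low levels, such as those of Lin28b, is unknown.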
